A study of Mus musculus with 6 samples.

Results

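The insulin-like growth factor 1 (IGF1) axis and the IGF binding proteins (IGFBPs) were followed in aortas of Mymsl knockout mice (KO), which lack a long noncoding RNA, and of wild-type controls (WT). The members were 9 genes, taken as the rows of the count table with the symbols Igf1, Igf1r, Igf2r, Igfbp2, Igfbp3, Igfbp4, Igfbp5, Igfbp6 and Igfbp7, out of 53735 rows in all. All 9 were in the table, and all 9 passed the filter on low counts, with at least 32 reads in every library. Each genotype had 3 libraries, and the labels state no age, sex, strain or design of the deleted allele. Total RNA came from aortic smooth muscle cells purified from the medial layer, and the design text mentions 3 pairs of animals. The labels do not say whether a library came from 1 mouse or from pooled mice, so p-values measure only the spread between these libraries, which may be technical.

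IGF1 is a secreted growth factor made by the liver and by many tissues, the vessel wall included. It binds the receptor tyrosine kinase IGF1R, which recruits insulin receptor substrates and SHC and so drives the PI3K, AKT and RAS cascades. Arterial smooth muscle cells use this signal for survival, growth and matrix production. IGFBPs hold IGFs in the extracellular space, extend their lifetime and keep them from or deliver them to the receptor, and proteases such as PAPP-A release the bound ligand. IGF2R has no kinase and carries IGF2 and lysosomal enzymes to lysosomes.

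Between 20048216 and 25521123 reads were counted per library. No row carried the name Mymsl, so the deletion was not checked under its own name. Only the clone-named row RP23-57D10.3, named here after its values were seen, was called over all genes (adjusted p = 0.00527); leaving out WT replicate 1 left 0 genes called. This row had 0 counts in every KO library, against 314, 378 and 273 counts in WT replicates 1, 2 and 3. Mitochondrially encoded genes held 18.9%, 10.003% and 12.98% of counts in KO replicates 1, 2 and 3, against 7.84%, 9.02% and 5.66% in WT replicates 1, 2 and 3. Smooth muscle markers were high in every library. The summed level of 7 of them was between 40143 and 54029 CPM (counts scaled by library size) in KO and between 48618 and 51932 CPM in WT. Markers of adventitial fibroblasts, a cell type outside the media, were also present, with 12 genes summing to 1588 to 2910 CPM in KO and 1739 to 2498 CPM in WT.

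Igfbp2, Igf1r and Igf2r were the members with the 3 smallest p-values in the comparison of KO with WT. The RefSeq promoter table (build GRCm38.p6) matched all 9 members. The 250 bases before the RefSeq start of those 3 genes are shown 5′ to 3′ on the coding strand, to give their sequence context. In GENCODE M21, used for the spans below, Igf1r starts at position 67952827, downstream of its window and not adjoining it. None of the 3 was called by edgeR. Capitals mark every GGGCGG, the core of the GC box bound by SP1-family factors, and its reverse complement CCGCCC. The window of Igf1r is chr7:67952007-67952256 (plus strand), that of Igf2r chr17:12769707-12769956 (minus strand) and that of Igfbp2, at the first of its starts, chr1:72824230-72824479 (plus strand).
Igf1r: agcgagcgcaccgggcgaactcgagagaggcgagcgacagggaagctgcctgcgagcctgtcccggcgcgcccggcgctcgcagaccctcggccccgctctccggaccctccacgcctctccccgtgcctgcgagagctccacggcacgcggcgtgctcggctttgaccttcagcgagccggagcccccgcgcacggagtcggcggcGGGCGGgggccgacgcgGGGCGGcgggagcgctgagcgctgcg
Igf2r: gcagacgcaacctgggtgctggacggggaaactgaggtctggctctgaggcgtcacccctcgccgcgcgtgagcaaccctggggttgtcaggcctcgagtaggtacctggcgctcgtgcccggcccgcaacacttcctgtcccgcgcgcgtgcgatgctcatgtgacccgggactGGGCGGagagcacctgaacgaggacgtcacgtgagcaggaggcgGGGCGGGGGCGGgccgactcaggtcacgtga
Igfbp2: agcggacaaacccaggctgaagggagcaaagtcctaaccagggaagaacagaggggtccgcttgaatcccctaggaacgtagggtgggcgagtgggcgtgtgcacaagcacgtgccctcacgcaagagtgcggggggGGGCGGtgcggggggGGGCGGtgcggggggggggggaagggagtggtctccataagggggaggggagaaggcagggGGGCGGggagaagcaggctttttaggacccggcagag
Igf1r held 2 matches, Igf2r 3 and Igfbp2 3, and at least 1 match on either strand was found in 32.7% of the 32851 windows of this length in the table. The second start of Igfbp2, with its window at chr1:72825137-72825386, held 0 matches, 56.4% G and C and 11 CG dinucleotides. At the starts shown, the G and C content was 77.6% for Igf1r, 69.2% for Igf2r and 67.2% for Igfbp2, against a median of 52.4% over all windows. The window of Igf1r held 42 CG dinucleotides, that of Igf2r 27 and that of Igfbp2 14, against a median of 6. None of the 3 held TATAAA on the coding strand, which 7.6% of all windows did. Among the members Igfbp4 did. Of the 6 members not shown, Igfbp7 held 4 matches to the GC box core, more than any window shown, and each other held 0. The G and C content of their windows ran from 49.6% (Igfbp6) to 74.0% (Igfbp7), and their CG dinucleotides from 5 (Igf1) to 32 (Igfbp3). High G and C content was thus not particular to the 3 genes shown. These matches describe letters only, and no binding was measured.

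Levels were compared between members as CPM per kilobase of annotated exon, since a longer transcript collects more reads. Igfbp7, a secreted binding protein of vascular cells with low affinity for IGFs, stood far above the rest, at 2154 ± 255 CPM per kilobase in KO and 2248 ± 189 in WT (SD, n = 3 each). It made up 91.2% ± 1.78 of the summed per-kilobase level of the 6 measured Igfbp genes in KO and 91.8% ± 0.651 in WT. Igfbp5, which binds extracellular matrix, followed at 103 ± 10.3 CPM per kilobase in KO and 116 ± 12.1 in WT, then Igfbp4, an inhibitory binding protein that PAPP-A cleaves, at 60.6 ± 14.1 in KO and 51.1 ± 7.52 in WT. Igfbp6, which prefers IGF2, measured 30.6 ± 9.34 CPM per kilobase in KO and 28.1 ± 8.69 in WT. From Igfbp7 down to Igfbp6, no library of a gene overlapped any library of the next gene in this order. Igf2r measured 11.1 ± 0.870 CPM per kilobase in KO and 13.5 ± 2.41 in WT, below Igfbp6 in every library. Igf1 itself measured 4.04 ± 2.73 CPM per kilobase in KO and 2.88 ± 0.625 in WT. Igfbp3, the main carrier of IGFs in serum, was the lowest member, at 0.700 ± 0.194 in KO and 1.23 ± 0.668 in WT.

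**Figure D1:**
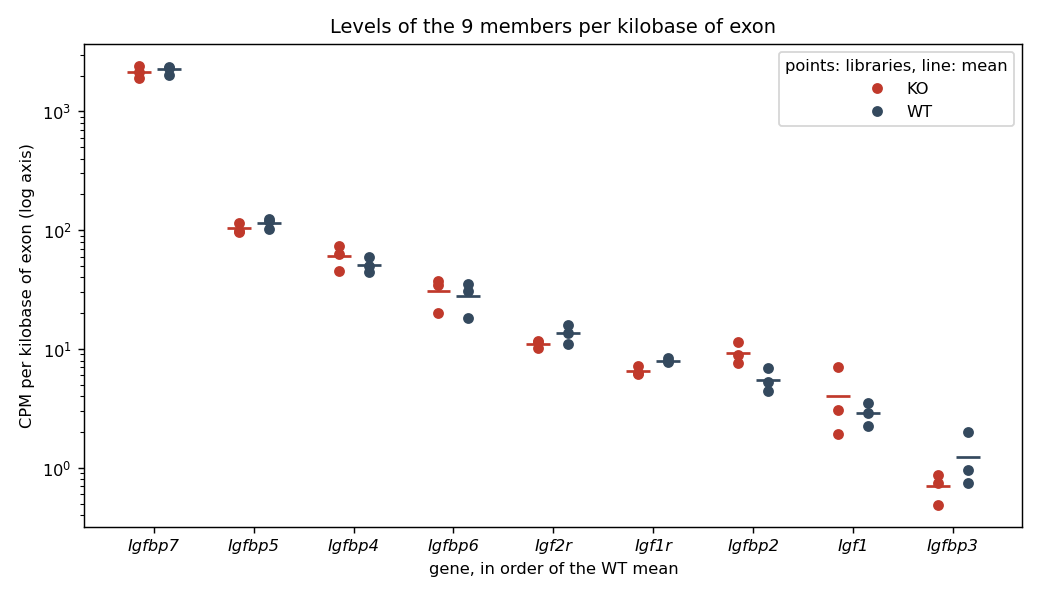
Level of each member in CPM per kilobase of exon (log axis), with KO libraries in red left of WT libraries in blue, and a line at each mean of 3 libraries. Igfbp7 stands at 1898 or more in every library, and Igfbp2 and Igf1r change places between the genotypes.

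By their means over 3 libraries, the members had the same order in both genotypes except for Igfbp2 and Igf1r. In single libraries Igf1 lay at 1.16 times Igf1r per kilobase in KO replicate 1, and at 0.267 to 0.487 times in KO replicates 2 and 3, against 0.268 to 0.453 times in WT. Per kilobase, Igfbp2 stood at 1.23, 1.58 and 1.41 times Igf1r in KO replicates 1, 2 and 3, against 0.680, 0.527 and 0.871 times Igf1r in WT replicates 1, 2 and 3. So Igfbp2 lay above Igf1r in each KO library and below it in each WT library. Dividing by the longest protein-coding transcript in place of all exons left this exchange as it was, with ratios of 1.18 to 1.51 in KO and 0.506 to 0.836 in WT. With that length Igfbp2 also passed Igf2r in the KO means (13.1 and 11.6 CPM per kilobase), but not in KO replicate 1 (10.7 and 12.3). The KO libraries of these 2 genes overlapped with either length.

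Levels within a gene are given from here on as CPM, normalized by the trimmed mean of M values (TMM), without division by length. Of the 9 members, 0 were called by the quasi-likelihood test of edgeR at an adjusted p under 0.05, where the background over all 14145 tested genes was 0.00707% in either direction. At an unadjusted p under 0.05 there were 2 members, 1 lower and 1 higher in KO, against a background of 14.6% in either direction, 7.76% lower and 6.8% higher. Libraries of the genotypes did not overlap for the same 2 members, Igf1r below and Igfbp2 above WT, where 11.3% of all tested genes were lower and 10.5% higher without overlap. These counts of 1 in 9 are near the background. The median log2 fold change (KO over WT) of the 9 members was −0.06, beside 0.01 over all tested genes. In bulk RNA, fewer cells of a type and less RNA per cell cannot be told apart.

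**Figure D2:**
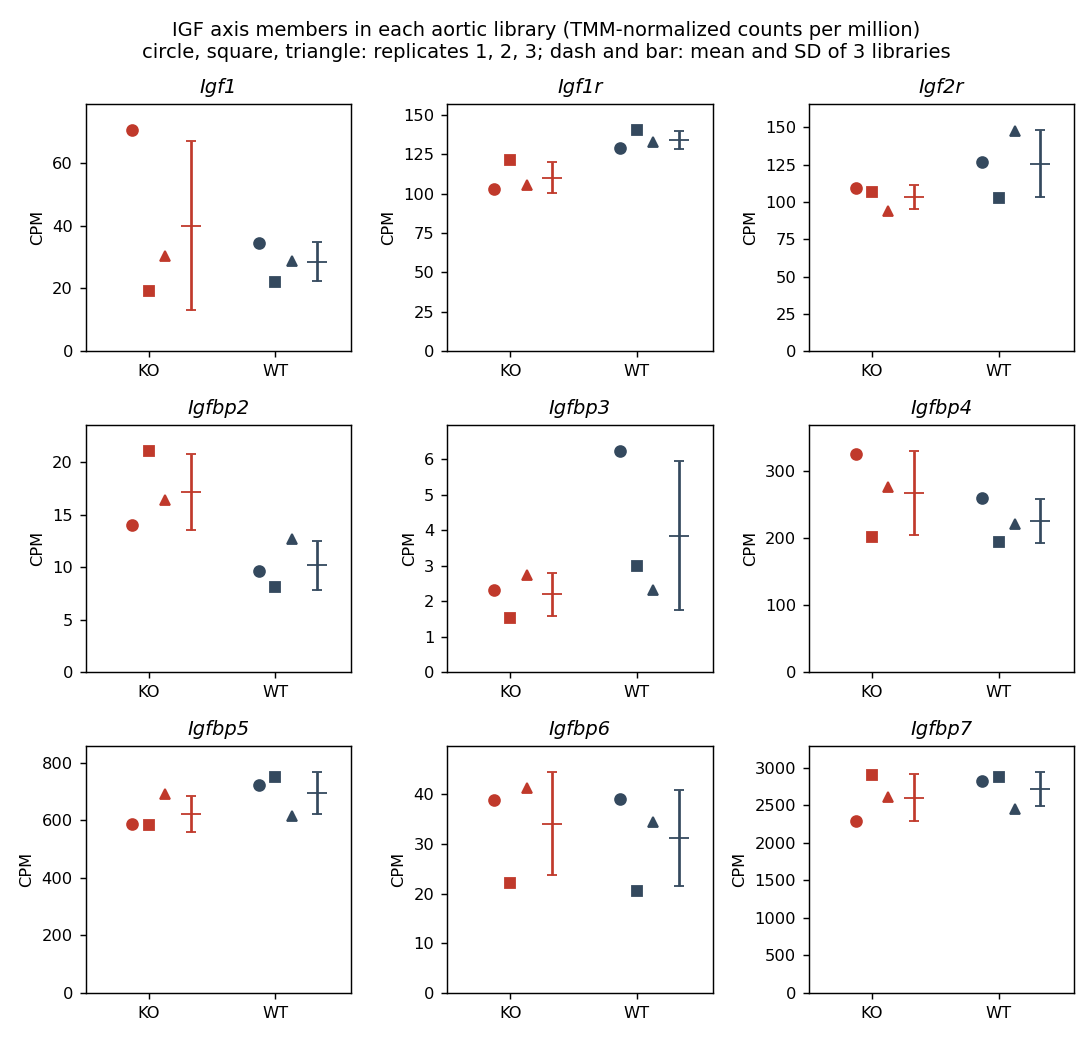
TMM-normalized CPM of each member in the 3 KO libraries (red, left) and the 3 WT libraries (blue, right), with symbols for replicates 1 to 3 and the mean and SD beside them. Only Igf1r and Igfbp2 show groups that do not overlap, and KO replicate 1 stands at 70.6 CPM for Igf1.

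Among the receptors, Igf1r stood at 103, 122 and 106 CPM in KO replicates 1, 2 and 3, against 129, 140 and 133 CPM in WT replicates 1, 2 and 3. Every KO library lay below every WT library, and the nearest were KO replicate 2 and WT replicate 1. The log2 fold change was −0.28 ± 0.08 (SE), a ratio of 0.821 with a 95% interval of 0.723 to 0.933. The unadjusted p was 0.00761 and the adjusted p 0.266, so Igf1r did not pass over all genes, nor did it in DESeq2 (adjusted p = 0.0936). Leaving out each library in turn gave log2 fold changes between −0.36 and −0.24. The mitochondrial share of counts, which also did not overlap between genotypes, was higher in KO. With mitochondrial and hemoglobin rows left out of the library size the log2 fold change of Igf1r was −0.28 and that of Igfbp2 0.75. That fit changes only the scaling, and the median over all tested genes hardly moved (0.0118, beside 0.0117 with these rows). Whether members differ for a reason that goes with the mitochondrial share was not tested. Igf1r spans positions 67952827 to 68233668 of chromosome 7 on the plus strand (GRCm38, GENCODE M21), and no annotated gene overlaps it there.

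Igf2r stood at 109, 106 and 94.0 CPM in KO replicates 1, 2 and 3, against 127, 103 and 148 CPM in WT replicates 1, 2 and 3. WT replicate 2 fell among the KO libraries, so the groups overlapped. The log2 fold change was −0.29 ± 0.13 (ratio 0.821, 95% interval 0.665 to 1.01, adjusted p = 0.359), the same size as that of Igf1r with a wider error. It was −0.15 without WT replicate 3 and −0.41 without WT replicate 2. Igf2r spans positions 12682406 to 12769664 of chromosome 17 on the minus strand. Airn, the antisense noncoding RNA that silences the paternal Igf2r copy in mice, overlaps it, and its span takes in 519 bases of Igf2r exons. Airn stood at 12.4, 12.7 and 8.91 CPM in KO replicates 1, 2 and 3, against 11.2, 12.2 and 13.4 CPM in WT replicates 1, 2 and 3 (log2 −0.11 ± 0.15, adjusted p = 0.751). No source used here gives the strand setting of the counting, and a division of reads between the 2 genes was not tested.

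Igfbp2, a binding protein that also carries an integrin-binding site, was the member with the smallest p. It stood at 14.0, 21.1 and 16.4 CPM in KO replicates 1, 2 and 3, against 9.67, 8.14 and 12.7 CPM in WT replicates 1, 2 and 3. All KO libraries lay above all WT libraries, and KO replicate 1 and WT replicate 3 were the nearest. These levels rest on 271, 441 and 379 reads in KO and 233, 205 and 307 reads in WT. The log2 fold change was 0.75 ± 0.20, a ratio of 1.69 with a 95% interval of 1.22 to 2.34. The unadjusted p was 0.00632 and the edgeR adjusted p 0.264, whereas DESeq2 gave an adjusted p of 0.0426, 1 of 65 genes it called higher (0.627% of the genes it adjusted). Over the 6 fits that leave out a library the log2 fold change lay between 0.58 (without KO replicate 2) and 0.95 (without WT replicate 3). Its share of the summed per-kilobase Igfbp level was 0.391% ± 0.0445 in KO and 0.229% ± 0.0721 in WT (SD, n = 3 each).

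Igfbp5 is the chromosomal neighbour of Igfbp2. Igfbp2 spans positions 72824503 to 72852474 of chromosome 1 on the plus strand and Igfbp5 positions 72857932 to 72874884 on the minus strand, so their 3′ ends face each other across 5457 bases. Igfbp5 stood at 586, 585 and 692.8 CPM in KO replicates 1, 2 and 3, against 722, 751 and 613 CPM in WT replicates 1, 2 and 3. KO replicate 3 and WT replicate 3 crossed over, so the groups overlapped. The log2 fold change was −0.16 ± 0.11 (ratio 0.893, 95% interval 0.751 to 1.06, adjusted p = 0.490), of the opposite sign to that of Igfbp2.

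Igf1 varied more within KO than between genotypes. It stood at 70.6, 19.2 and 30.4 CPM in KO replicates 1, 2 and 3, against 34.6, 22.2 and 28.8 CPM in WT replicates 1, 2 and 3. KO replicate 1 was the highest of all 6 libraries and KO replicate 2 the lowest, 3.68-fold apart, with all WT libraries between them. The coefficient of variation was 67.5% in KO and 21.7% in WT. The log2 fold change was 0.49 ± 0.43 (ratio 1.40, 95% interval 0.701 to 2.80, adjusted p = 0.611), and without KO replicate 1 it was −0.20 ± 0.24. KO replicate 1 also had the highest mitochondrial share, and 10 heart muscle markers summed to 162 CPM there. In KO replicate 2 this sum was 106 CPM and in KO replicate 3 it was 89.4 CPM, while the WT libraries spanned 78.5 to 111 CPM. Ryr2 alone made up 69.5 to 81.4 CPM of this sum in KO and 54.4 to 93.1 CPM in WT. The other 9 markers, split off after the values were seen, summed to 80.9, 27.99 and 19.98 CPM in KO replicates 1, 2 and 3, against 22.7, 24.1 and 18.3 CPM in WT replicates 1, 2 and 3. KO replicate 1 thus stood above all other libraries in heart muscle markers. Myh6, a heavy chain of cardiac myosin, had 259, 64 and 10 reads in KO replicates 1, 2 and 3, against 9, 41 and 10 reads in WT replicates 1, 2 and 3, and Myl7, Sln and Actc1 were also highest in KO replicate 1. Myl2 and Nppa had at most 3 reads in any library. Of the 10 markers 7 were tested, 6 of them had a fold change above 0, and 0 were called. At an unadjusted edgeR p under 0.05, 3 were higher in KO, as were 6.8% of all tested genes. Myl4 was higher with no overlap, as were 10.5% of all tested genes. The part of heart muscle markers in the Igf1 level was not tested. Igf1 spans positions 87858265 to 87937042 of chromosome 10 on the plus strand. Its antisense neighbour Igf1os, whose span covers 2600 bases of Igf1 exons, had at most 3 reads in any library.

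Igfbp4 and Igfbp6 shared with Igf1 the libraries in which they were lowest, 1 in each genotype. Igfbp4 stood at 325, 202 and 276 CPM in KO replicates 1, 2 and 3, against 261, 195 and 221 CPM in WT replicates 1, 2 and 3 (log2 0.25 ± 0.18, adjusted p = 0.525). Igfbp6 stood at 38.8, 22.2 and 41.3 CPM in KO replicates 1, 2 and 3, against 39.0, 20.4 and 34.4 CPM in WT replicates 1, 2 and 3 (log2 0.12 ± 0.29, adjusted p = 0.861). Igfbp4 spans positions 99041244 to 99054392 of chromosome 11 and Igfbp6 positions 102144362 to 102149511 of chromosome 15, both on the plus strand. For all 3 genes the lowest pair of libraries was KO replicate 2 and WT replicate 2. The adventitial fibroblast markers had the same lowest pair: their sum was 2910, 1588 and 2757 CPM in KO replicates 1, 2 and 3, against 2498, 1739 and 2461 CPM in WT replicates 1, 2 and 3. Dcn alone made up 985, 414 and 856 CPM of this sum in KO replicates 1, 2 and 3. Mfap5 did not share that pair. It was lowest in KO replicate 1 (174 CPM) and highest in WT replicate 2 (345 CPM). Col14a1 was lowest in KO replicate 2 (247 CPM) within KO and in WT replicate 2 (290 CPM) within WT. KO replicate 1 (250 CPM) also lay below WT replicate 2 for this gene. Each other marker of the list had that pair as its 2 lowest libraries of all 6. Of these 12 markers, which include Dpt, Pdgfra, Lum and Dcn, 9 had a fold change above 0 and 3 below, 0 were called, and none was at 0 counts over the libraries. Markers of macrophages, 12 genes, had that lowest pair too, with 116, 55.5 and 145 CPM in KO replicates 1, 2 and 3, against 99.7, 59.5 and 91.5 CPM in WT replicates 1, 2 and 3. Of the 11 macrophage markers tested, 10 had a fold change above 0 and 0 were called. Endothelial and adipocyte markers did not share that pair. The 12 endothelial markers summed to 589, 561 and 889 CPM in KO replicates 1, 2 and 3, against 620.3, 527 and 492 CPM in WT replicates 1, 2 and 3, with WT replicate 3 the lowest in WT. Of them 10 had a fold change above 0 (52.5% of all tested genes did), 3 were higher at an unadjusted p under 0.05, 0 were called and the median log2 fold change was 0.28. The 10 adipocyte markers summed to 277, 210.5 and 390 CPM in KO replicates 1, 2 and 3, against 361, 250.4 and 172 CPM in WT replicates 1, 2 and 3, and 9 had a fold change above 0 with 0 called. The part of these cell types in the levels of the members was not tested. The summed smooth muscle markers were highest in KO replicate 2 (54029 CPM) and WT replicate 2 (51932 CPM). Of these 7 markers 6 had a fold change below 0 (47.5% of all tested genes did) and 0 were called. Myocd was lower with no overlap, as were 11.3% of all tested genes, at an unadjusted edgeR p of 0.0301.

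**Figure D3:**
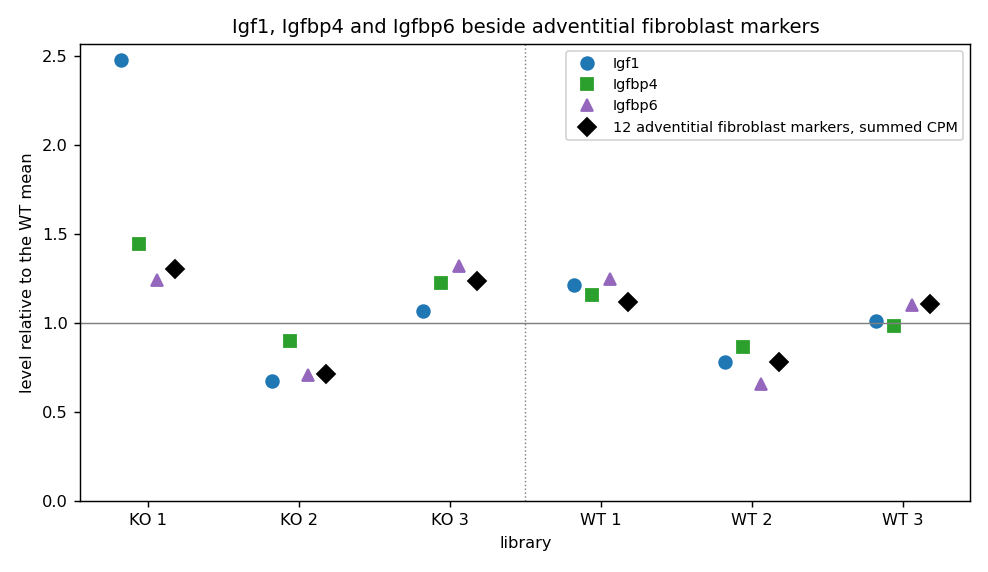
Levels of Igf1, Igfbp4, Igfbp6 and the summed 12 adventitial fibroblast markers in each library, each divided by its WT mean. KO replicate 2 and WT replicate 2 lie below 1 for all of them, and Igf1 in KO replicate 1 reaches 2.47.

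A fit with the log2 summed level of the 12 adventitial markers as a covariate, an alternative that was chosen with the values known, gave Igf1 a log2 fold change of 0.23 ± 0.27, Igfbp4 0.17 ± 0.09 and Igfbp6 0.02 ± 0.11. The standard errors of Igfbp4 and Igfbp6 were 0.18 and 0.29 without the covariate. A covariate chosen for sharing the pattern of these genes is bound to lower them. With the replicate number as a block in place of the covariate, they were 0.09 for Igfbp4, 0.08 for Igfbp6 and 0.23 for Igf1. What the smaller errors reflect was not tested. In the fit with the covariate Igf1r had −0.27 ± 0.06 and Igfbp2 0.76 ± 0.21, values close to those without it, and 0 members were called. The 3 genes whose log2 CPM most resembled that of Igf1 over the 6 libraries, among 8748 named genes with a mean of at least 10 CPM, were Gxylt2, Lpin3 and Tiparp. Their Pearson r with Igf1 was 0.994 for Gxylt2, 0.989 for Lpin3 and 0.984 for Tiparp, as a description over libraries in which KO replicate 1 was the highest for each gene. Over these 6 points, 25 of the 8748 genes had an r above 0.95.

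Igfbp7 and Igfbp3 mark the ends of the range of levels. Igfbp7 stood at 2294, 2912 and 2608 CPM in KO replicates 1, 2 and 3, against 2822, 2876 and 2457 CPM in WT replicates 1, 2 and 3. Its groups overlapped, and its log2 fold change was −0.06 ± 0.12, a ratio of 0.958 with a 95% interval of 0.790 to 1.16 (adjusted p = 0.832). Igfbp7 spans positions 77349240 to 77408041 of chromosome 5 on the minus strand, and 85 bases of its exons lie under the end of Polr2b on the opposite strand. Igfbp3, at positions 7206086 to 7213923 of chromosome 11 on the minus strand, stood at 2.32, 1.53 and 2.73 CPM in KO replicates 1, 2 and 3, against 6.23, 2.98 and 2.32 CPM in WT replicates 1, 2 and 3. WT replicate 1, at 150 reads, stood above all other libraries, which had 32 to 75. The fitted log2 fold change of Igfbp3 was −0.80 ± 0.40 (ratio 0.572, 95% interval 0.299 to 1.10, adjusted p = 0.386), and −0.27 without WT replicate 1. Igfbp1, which faces Igfbp3 on chromosome 11 across 3539 bases, had 0 reads in all 6 libraries, which allows up to 0.0473 CPM over the KO group and 0.0409 CPM over the WT group.

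**Figure D4:**
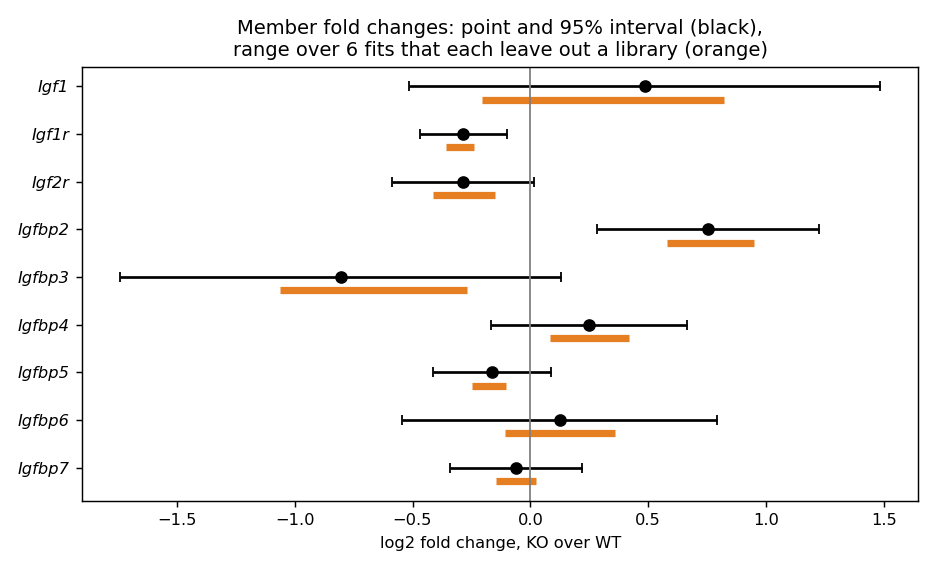
Log2 fold change (KO over WT) of each member with its 95% interval in black and, in orange, the range over the 6 fits that each leave out a library. The intervals of Igf1r and Igfbp2 do not reach 0, that of Igf1 is the widest, and the orange ranges of Igf1, Igfbp6 and Igfbp7 cross 0.

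The wider pathway was described with 58 other genes in 5 lists, of which 54 were tested. Rack1 was matched by its older symbol Gnb2l1. In edgeR 0 of the 54 were called in either direction. At an unadjusted p under 0.05, 10 were lower and 2 higher in KO, against the background of 7.76% lower and 6.8% higher. Groups did not overlap for 13 lower and 3 higher genes, against 11.3% and 10.5% of all tested genes. Of the 54, 35 had a fold change below 0, where 47.5% of all tested genes did, and their median log2 fold change was −0.06. The fold changes of pathway genes and members share the same 6 libraries.

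The second ligand Igf2 was scarcely detected, with 11, 17 and 33 reads in KO replicates 1, 2 and 3, against 23, 28 and 11 reads in WT replicates 1, 2 and 3 (log2 0.17 ± 0.45, adjusted p = 0.884). Igfals, the acid-labile subunit that joins IGF and IGFBP3 in serum, had 5 to 9 reads in KO and 4 to 11 reads in WT and was not tested. Of 10 proteases and regulators of IGFBPs, 7 had a fold change below 0 and 3 above, and leaving out KO replicate 2 turned this to 3 below and 7 above. Mmp14, a membrane-bound matrix metalloproteinase, stood at 42.1, 53.2 and 43.8 CPM in KO replicates 1, 2 and 3, against 69.7, 55.4 and 96.5 CPM in WT replicates 1, 2 and 3. Its groups did not overlap (log2 −0.67 ± 0.19), and it was not called by edgeR (adjusted p = 0.273) but was by DESeq2 (0.0391), which called 1.22% of the genes it adjusted as lower. Ctsd, a lysosomal protease, measured 374 ± 11.8 CPM in KO and 346 ± 8.61 in WT (SD, n = 3 each), with no overlap (log2 0.11 ± 0.06, adjusted p = 0.436). Htra1, a secreted protease that cleaves IGFBPs, had 561 ± 38.0 CPM in KO and 589 ± 19.5 in WT, and is named here beyond the rule that took the 2 smallest p of each list.

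Downstream of the receptor, 13 receptors and adaptors were tested, of which 7 had a fold change below 0 (47.5% of all tested genes did) and 5 were lower with no overlap (11.3% of all tested genes). Itgb3, the integrin beta chain that pairs with the alpha chain Itgav and is known from cultured smooth muscle cells to modulate IGF1 signalling, stood at 128, 168 and 145 CPM in KO replicates 1, 2 and 3, against 226, 172 and 287 CPM in WT replicates 1, 2 and 3. Its log2 fold change was −0.63 ± 0.18, and again edgeR did not call it (adjusted p = 0.273) and DESeq2 did (0.0324). Sos1, the exchange factor that activates RAS, measured 28.1 ± 1.46 CPM in KO and 33.8 ± 1.78 in WT (log2 −0.27 ± 0.07, adjusted p = 0.266). Of 21 genes of PI3K and AKT signalling, 17 had a fold change below 0, and 6 were lower with no overlap and 0 higher, where 47.5% of all tested genes were below 0, 11.3% lower and 10.5% higher without overlap. Leaving out single libraries gave 14 (without WT replicate 2) to 18 of the 21 below 0. Their fold changes were small, with a median log2 of −0.09. Pdpk1, the kinase that activates AKT, measured 62.9 ± 4.21 CPM in KO and 75.1 ± 4.31 in WT (log2 −0.26 ± 0.07, adjusted p = 0.266), and the PI3K catalytic subunit Pik3cb 26.04 ± 2.14 CPM in KO and 31.0 ± 1.02 in WT (log2 −0.25 ± 0.08, adjusted p = 0.279). Of 9 RAS and MAPK genes, 5 had a fold change above 0, and the GTPases Nras (log2 0.22 ± 0.08) and Hras (log2 0.16 ± 0.06) were higher with no overlap but not called (adjusted p = 0.289 and 0.324). In this list 2 genes were higher and 1 lower with no overlap, against 10.5% and 11.3% of all tested genes.

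**Figure D5:**
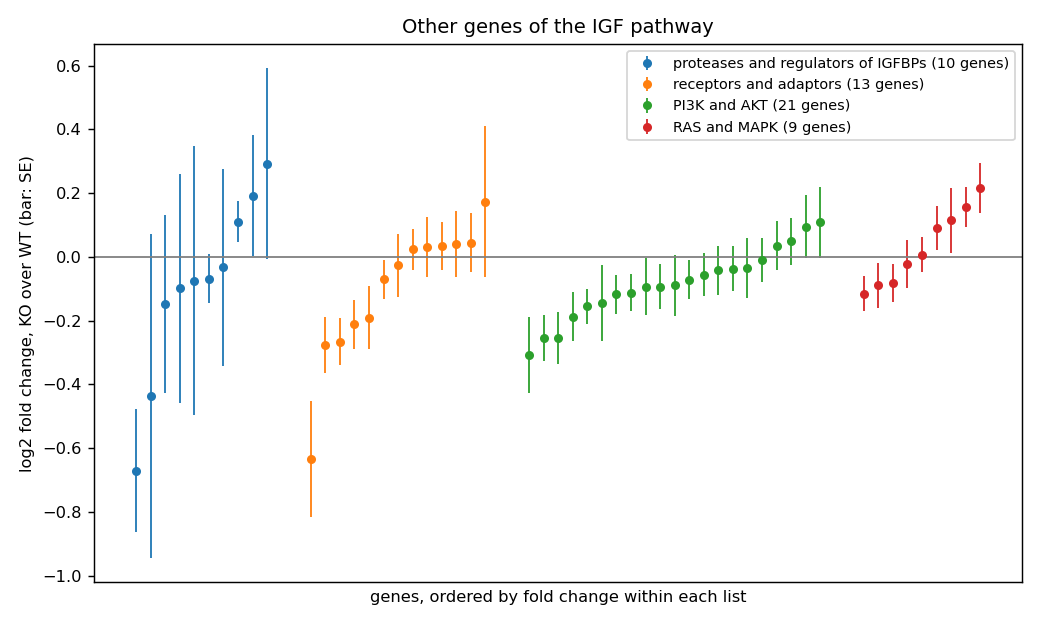
Log2 fold change (KO over WT) with its SE for the 53 tested genes of 4 pathway lists, ordered within each list. Most PI3K and AKT genes lie slightly below 0, and Mmp14 and Itgb3 stand lowest in their lists.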

How the data were processed

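RNA from smooth muscle cells of the aortic media was sequenced in 3 KO and 3 WT libraries with Illumina TruSeq Stranded mRNA reagents, per the labels' protocols. The authors deposited raw counts per gene row. Named tools were Subread 1.6.1 with featureCounts, STAR 2.6.0c and Trimmomatic 0.36 on GRCm38, per the submitters' processing notes. Not given in the sources used here are the annotation release, the strand setting and the treatment of multi-mapping reads. Columns were assigned to libraries by the descriptions in the labels. No 2 replicates held identical values.

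Genotypes were compared with edgeR 4.0.16 (quasi-likelihood, R 4.3.3) with TMM, genotype as the only term and filterByExpr (minimum count 10, minimum total 15), which kept 14145 rows. Two-sided p-values were adjusted over all of them by Benjamini and Hochberg, with a threshold of 0.05. Standard errors and 95% intervals derive from the F statistic. DESeq2 1.42.0 and limma-voom (limma 3.58.1) were alternatives, and the tests were first checked on simulated counts. Exon lengths and coordinates come from GENCODE M21, promoter sequences from RefSeq. Members, pathway lists and marker lists were chosen with earlier results of these data known. All members are named, and per pathway list the 2 genes with the smallest p. Limits from 0 counts use 3 counts over a group, and cover counting error only.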

Additional observations from a re-analysis of the deposited data

How the results depend on the processing

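Of 135 recomputed member fold changes (15 alternatives for each of 9 members), 127 kept their direction and their side of the threshold. Another 2, Igfbp3 in both DESeq2 fits, kept their direction but got no adjusted p from DESeq2. Leaving out single libraries gave log2 fold changes from −0.20 (without KO replicate 1) to 0.82 for Igf1, from −0.11 (without WT replicate 2) to 0.36 for Igfbp6, with −0.04 without KO replicate 3, and from −0.148 to 0.0219 (without KO replicate 1) for Igfbp7, so their directions rest on single libraries. Calls over all genes went between 0 and 2 higher (2 without KO replicate 2) and between 0 and 1 lower (0 without WT replicate 1), beside 0 higher and 1 lower with all libraries. DESeq2 called 65 higher and 127 lower genes and 1 member, Igfbp2 (log2 0.75, adjusted p = 0.0426). On the filtered rows alone, an alternative added after the data were seen, as was the fibroblast marker covariate, it called 67 higher, 137 lower and 1 member (adjusted p = 0.0394). edgeR without a filter called 5 higher and 4 lower genes; the cause of these differences was not tested. At an unadjusted p under 0.05 edgeR had 2 members. With the replicate number as a block, 0 genes were called higher and 0 lower and 0 members were called. The labels do not say what a replicate number shares. Over all tested genes, deviations of same-numbered libraries correlated at 0.107, 0.134 and −0.0556 for numbers 1, 2 and 3, and KO replicate 3 correlated best with WT replicate 1 (0.179). The block nevertheless lowered the standard errors of some members, from 0.43 to 0.23 for Igf1, 0.18 to 0.09 for Igfbp4 and 0.29 to 0.08 for Igfbp6. These values do not decide whether the libraries were paired. The median of all genes moved by under 0.1 log2 in every setting. Depth limits Igfbp3, with 32 to 150 reads, and Igf2, with 11 to 33.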
